A study of Mus musculus with 2 samples.

Results

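The complement components and receptors described here are 8 genes of the 55536 annotated mouse genes in the tables: the C1q chains C1qa, C1qb and C1qc, the components C3, Cfb and Cfp, and the receptors C3ar1 and C5ar1. The rule that picks them is the gene symbol alone. PolyA RNA was sequenced from bone marrow-derived macrophages of C57BL/6J mice, in 1 group of 2 biological replicates. Per the labels, the cells received 100 ng/ml Lipid A (the lipid part of endotoxin) over 12 h, rested for 12 h after its removal, and were given the same dose once more, with RNA taken after 300 min. Another label field calls the agent lipoprotein A, which the labels do not settle. Sex and age were not collected. Both libraries carry 1 donor identifier and separate biosample identifiers, and the labels do not say whether separate animals were used, so the spread between them may be technical. No untreated or singly treated sample was analysed here, so no value below is a response to Lipid A, and with 1 group no test between treatments was made.

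Complement is a set of plasma and cell-surface proteins that marks microbes and dying cells for uptake. C1q, assembled from A, B and C chains in equal numbers, recognises antibody and altered surfaces and starts the classical pathway. C3 is the shared central component, factor B (Cfb) supplies the protease of the alternative pathway convertase, and properdin (Cfp) stabilises that convertase. The fragments C3a and C5a are read by the G protein-coupled receptors C3ar1 and C5ar1. Most complement proteins of plasma come from the liver, while macrophages are a known source of C1q and properdin and also make C3 and factor B.

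Members were abundant in both libraries. All 8 reached 100 TPM, a relative abundance corrected for transcript length and library depth, in both libraries, against 5.42% of the 22028 protein-coding genes. The members were chosen with earlier results of these data known, so this comparison describes the list and tests nothing. Together they came to 8872 TPM in replicate 1 and 7597 TPM in replicate 2, and they held 0.825% and 0.829% of all counts in replicates 1 and 2. C1qb and C1qc led in TPM, and C3 was the member that lay furthest apart between the libraries.

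The sequences before the start sites of C3, C1qb and C3ar1 are shown because C3 was the member higher in replicate 2 by more than 2-fold, whereas C1qb and C3ar1 were the members with the most counts on the other side. They are from RefSeq on GRCm38.p6, run 5′ to 3′ on the gene's strand and end just before the start given by RefSeq or, for C3ar1, before the GENCODE start 4 bases further out. Capitals mark matches, on either strand, to the motifs searched.
C3 (chr17:57228137-57228386, minus strand): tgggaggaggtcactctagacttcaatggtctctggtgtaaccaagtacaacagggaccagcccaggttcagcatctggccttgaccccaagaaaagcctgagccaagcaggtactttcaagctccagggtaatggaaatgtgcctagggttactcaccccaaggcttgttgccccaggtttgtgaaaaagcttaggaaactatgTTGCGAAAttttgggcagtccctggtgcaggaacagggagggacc
C1qb (chr4:136886201-136886450, minus strand): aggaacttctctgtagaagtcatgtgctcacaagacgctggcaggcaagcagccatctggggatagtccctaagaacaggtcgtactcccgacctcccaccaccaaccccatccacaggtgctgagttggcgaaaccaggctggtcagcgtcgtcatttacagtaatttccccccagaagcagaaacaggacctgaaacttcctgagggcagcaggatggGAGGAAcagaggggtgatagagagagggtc
C3ar1 (chr6:122856162-122856407, minus strand): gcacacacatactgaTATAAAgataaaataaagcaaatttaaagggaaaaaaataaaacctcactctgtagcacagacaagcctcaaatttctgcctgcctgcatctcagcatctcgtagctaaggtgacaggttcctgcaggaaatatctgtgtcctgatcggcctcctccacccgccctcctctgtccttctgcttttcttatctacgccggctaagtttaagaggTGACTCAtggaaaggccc

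Promoter windows of 250 bases before and 50 bases after the RefSeq start were at hand for 6 members, and those of C1qa and Cfb were not analysed here. The capitals in C3 are a C/EBP match to TTGCNNAA at positions -45 to -38 from the start, a motif held by 10.8% of all 32851 windows. Those in C1qb are a match to the PU.1 motif GAGGAA at -30 to -25, and 28.3% of windows hold that motif. In C3ar1 they are a match to the AP-1 motif TGANTCA at -22 to -16, held by 7.81% of windows, and a TATAAA match at -235 to -230. TATAAA was held by 13.6% of windows, C3 among them at 15 to 20 bases after its start. GAGGAA was found in 3 of the 6 member windows, the others being C1qc and Cfp. The interferon-stimulated response element core GAAANNGAA was found in 1, that of C5ar1, against 8.56% of all windows. That match is at -66 to -58 from the RefSeq start. The GENCODE start of C5ar1 is 202 bases further out, so the match lies inside the annotated gene. The gamma-activated site TTCNNNGAA and the NF-kB motif GGGANTTTC were in 0 of the 6 windows, against 8.30% and 1.11% of all windows. A match is a run of letters and was not tested as a binding site.

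By TPM, the C1q chains held most of the members' RNA. Counts are not corrected for transcript length, and by counts C1qb was the largest member in replicate 1, at 96245. In replicate 2 it was C3, at 100117 counts against 72833 for C3ar1 and 69675 for C1qb. C1qb, the B chain (ENSMUSG00000036905.8, chromosome 4, 136880129 to 136886187, mm10), had 3226 TPM in replicate 1 against 2541 TPM in replicate 2. C1qc, the C chain (chromosome 4, 136889804 to 136893065), was at 2387 and 1811 TPM. C1qa, the A chain (chromosome 4, 136895917 to 136898803), was at 1017 and 696 TPM. The order B, C, A was the same in both libraries, and neither C1qb and C1qc nor C1qc and C1qa overlapped in their ranges. C1qb ranked 27 and 34 among protein-coding genes in replicates 1 and 2, C1qc 40 and 52, and C1qa 112 and 187. The chains summed to 6630.2 TPM in replicate 1 and 5047 TPM in replicate 2, which was 74.7% and 66.4% of the members' total.

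The chain levels were unequal by a similar factor in both libraries. C1qb exceeded C1qc 1.35-fold in replicate 1 and 1.40-fold in replicate 2, and exceeded C1qa 3.17-fold and 3.65-fold. On the log2 scale of TPM, C1qc over C1qb was -0.46 ± 0.04, C1qa over C1qb was -1.77 ± 0.14 and C1qa over C1qc was -1.31 ± 0.11 (SD, n = 2). The genes lie on the minus strand within 18675 bases, with gaps of 3616 bases between C1qb and C1qc and 2851 bases between C1qc and C1qa. No other annotated gene overlaps them, and each has 3 exons in its coding transcript.

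Of the components around C3, properdin was steadier between the libraries than C3. C3 (ENSMUSG00000024164.15, chromosome 17, 57203970 to 57228136) had 275 TPM in replicate 1 against 701 TPM in replicate 2. Cfb, factor B (ENSMUSG00000090231.10, chromosome 17, 34856374 to 34862518), was at 409 and 600 TPM. Cfp, properdin (chromosome X, 20925454 to 20931555), was at 713 and 544 TPM. C3 was thus below Cfb and Cfp in replicate 1 and above both in replicate 2. On the log2 scale, C3 over Cfb was -0.57 in replicate 1 and 0.23 in replicate 2, C3 over Cfp was -1.37 and 0.37, and Cfb over Cfp was -0.80 and 0.14. The spread between libraries was larger than the mean of each of these ratios. C3 took 3.10% of the members' summed TPM in replicate 1 and 9.22% in replicate 2.

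Among the receptors for the released fragments, C3ar1 stood above C5ar1. C3ar1, the C3a receptor (ENSMUSG00000040552.8, chromosome 6, 122847138 to 122856161), was at 624 and 543 TPM, the smallest relative spread of the members. C5ar1, the C5a receptor (chromosome 7, 16246743 to 16259540), was at 221 and 163 TPM, the lowest member in both libraries. C3ar1 exceeded C5ar1 2.83-fold in replicate 1 and 3.34-fold in replicate 2, or by 1.62 ± 0.17 on the log2 scale (SD, n = 2).

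**Figure D1:**
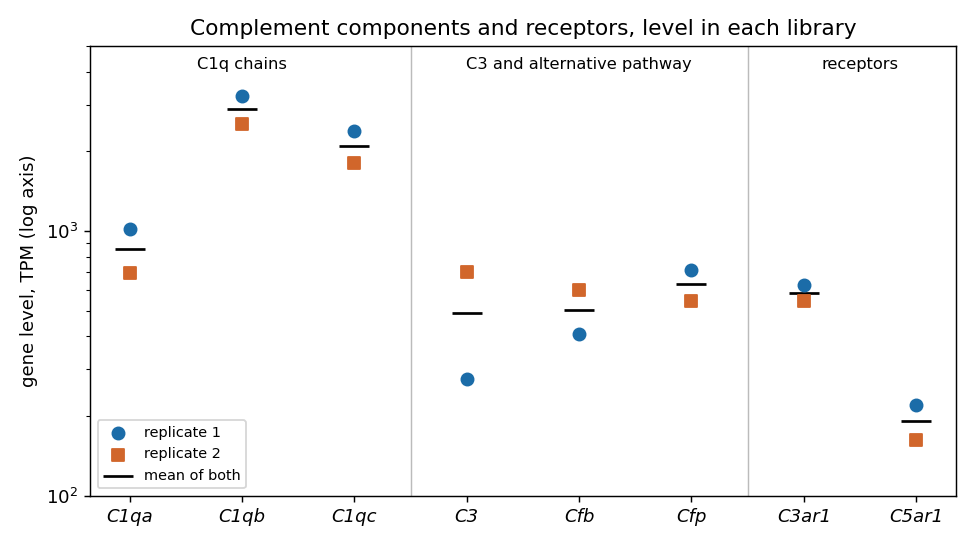
Gene level of the 8 members in TPM on a log axis, with a circle for replicate 1, a square for replicate 2 and a bar at their mean. C3 and Cfb are higher in replicate 2 and the other 6 members are higher in replicate 1.

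Ordered by mean level, the members ran C1qb at 2883 ± 485 TPM, C1qc at 2099 ± 407 TPM, C1qa at 857 ± 227 TPM, Cfp at 628 ± 120 TPM, C3ar1 at 584 ± 57.0 TPM, Cfb at 504 ± 135 TPM, C3 at 488 ± 301 TPM and C5ar1 at 192 ± 41.1 TPM (SD, n = 2 each). Each neighbouring pair from C1qa down to C3 overlapped in range, so neighbours there were not resolved. C1qa, whose lower value was 696 TPM, did not overlap C3ar1 or Cfb, and it was above Cfp within each library. It did overlap C3, which was slightly above C1qa in replicate 2, at 701 against 696 TPM. C3 and C5ar1 did not overlap, with 275 TPM the lower C3 value and 221 TPM the higher C5ar1 value.

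The libraries differed most in C3. Scaled counts gave C3 a log2 ratio of replicate 2 over replicate 1 of 1.25, from 45562 counts in replicate 1 and 100117 in replicate 2, which is 2.38-fold. Of the 8 members, 1 (C3) lay 2-fold or more apart, where 4.21% of the 12543 genes tested lay that far apart in either direction and 2.30% lay that far toward replicate 2. Cfb followed in the same direction at 0.52, or 1.43-fold. The other 6 members were lower in replicate 2, at log2 ratios of -0.21 for C3ar1, -0.35 for C1qb, -0.40 for C1qc, -0.41 for Cfp, -0.55 for C1qa and -0.60 for C5ar1. The median over the 8 was -0.38, against 0.000355 over all genes tested. All 8 passed the filter on low counts, with 6943 counts or more in each library, so counting error was small beside these differences. For C3 the counting interval of the log2 ratio at 95% was 1.24 to 1.27. With 1 library on each side, none of these differences has a replicate check, and a larger share of cells holding a transcript cannot be told apart from more RNA per cell.

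Differences of that size were uncommon among abundant genes. Of 10067 genes averaging at least 100 counts, 1.95% lay 2-fold or more apart, and 1.12% lay as far apart as C3. Of the 837 genes averaging at least 10000 counts, a line chosen after the values were seen, 6 lay 2-fold or more apart. C3 was 1 of these, beside Apoe at -1.19, Neat1 at -1.03, Ifit1bl1 at 1.25, Nos2 at 1.26 and Sh3bgrl2 at 1.45. Apart from C3, the members were nearer to the bulk of genes. As far or farther than C3ar1 lay 49.2% of the genes tested, as far as C1qb 29.5%, as far as C1qc 24.2%, as far as Cfp 23.8%, as far as Cfb 16.4%, as far as C1qa 14.6% and as far as C5ar1 12.4%. Among genes averaging at least 100 counts these shares were smaller, in the same order 42.7%, 22.1%, 17%, 16.6%, 10.1%, 8.56% and 6.83%.

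**Figure D2:**
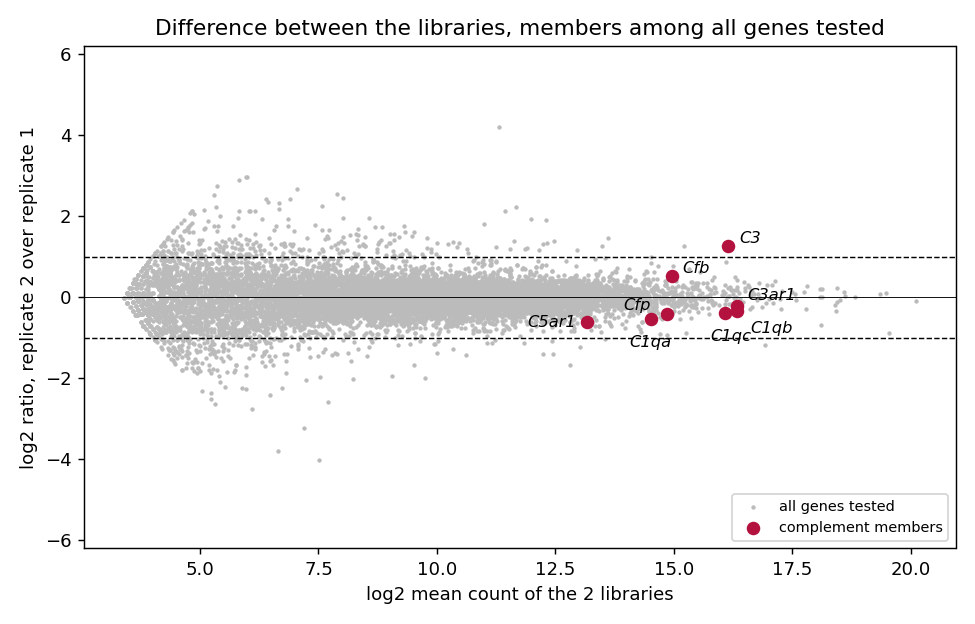
Log2 ratio of replicate 2 over replicate 1 against the log2 mean count, in grey for the 12543 genes tested and in red for the 8 members, with dashed lines at 2-fold. C3 at 1.25 is the only member past a dashed line.

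Most members were carried by 1 transcript. C1qa, C1qb and C3ar1 each have 1 annotated transcript. C1qc-201 held 99.6% ± 0.0820 and Cfp-201 held 97.7% ± 0.435 of the TPM of their genes, the rest being processed transcripts without a coding frame (SD, n = 2). C3-201, the full transcript with 41 exons and 5136 nt, held 93.1% of C3 in replicate 1 and 87.6% in replicate 2. The short coding model C3-203 of 554 nt, none of whose bases is outside the other C3 transcripts, held 4.25% and 8.83%. The deposited tables made directly from the reads, called the second quantification here, gave C3-203 0% and 0.0591%, and C3-201 99.9% and 98.5%.

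Cfb was divided over many models, and the division depended on how the reads were assigned. Of its 8 annotated transcripts, Cfb-201 led the first quantification with 37.5% in replicate 1 and 23.7% in replicate 2. Cfb-206 held 24.0% and 20.3%, Cfb-202 held 8.25% and 22.9%, Cfb-204 held 14.5% and 21.1% and Cfb-208 held 13.8% and 9.69%. In the second quantification Cfb-201 held 67.0% and 58.7%, and Cfb-202 held 18.5% and 26.3%. The 4 models under 1000 nt held 30.2% and 33.0% of Cfb in the first quantification but 8.0% and 9.16% in the second. Cfb-201 and Cfb-202 have the same 18 exons except at their outer ends, where Cfb-202 holds 4 bases found in no other Cfb transcript. Cfb-201 holds none of its own.

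Cfb-206 and Cfb-207 differ from Cfb-201 inside the coding region by 4 bases, the first of exon 16 (chr17:34857133-34857136, mm10, minus strand). The stretch is shown because it is the inner difference on which a Cfb-206 read can be told from a Cfb-201 read, with the 4 bases in capitals and 25 bases of the spliced transcript on each side, from GENCODE M21.
Cfb-201: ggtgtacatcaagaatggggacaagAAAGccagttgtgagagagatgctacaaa
Cfb-206: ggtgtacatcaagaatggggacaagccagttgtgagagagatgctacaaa

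The share of Cfb-206 was 6.48% and 5.86% in the second quantification, and Cfb-207, which lacks the same bases, was at 0 TPM in both quantifications and libraries. The annotated readthrough gene Gm20547 overlaps Cfb on the same strand and was at 0 TPM in both libraries. Counting could split reads between them, so the Cfb level is uncertain to that extent.

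C5ar1 had no single leading form. C5ar1-203, a model of 674 nt with 544 coding bases, held 44.4% in replicate 1 and 52.2% in replicate 2. C5ar1-201 held 31.1% and 28.9%, and C5ar1-202 held 24.5% and 18.9%. These are shares of TPM, which is corrected for length, so a short model has a larger share of TPM than of reads. In the second quantification C5ar1-203 held 42.9% and 45.1%, C5ar1-202 held 54.4% and 44.9%, and C5ar1-201 held 2.71% and 10.1%. There C5ar1-202 led in replicate 1, and C5ar1-203 was level with it in replicate 2. C5ar1-201 and C5ar1-202 hold the same 1053 coding bases, and C5ar1-202 has 89 bases of its own, against 2 for C5ar1-201 and 0 for C5ar1-203.

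**Figure D3:**
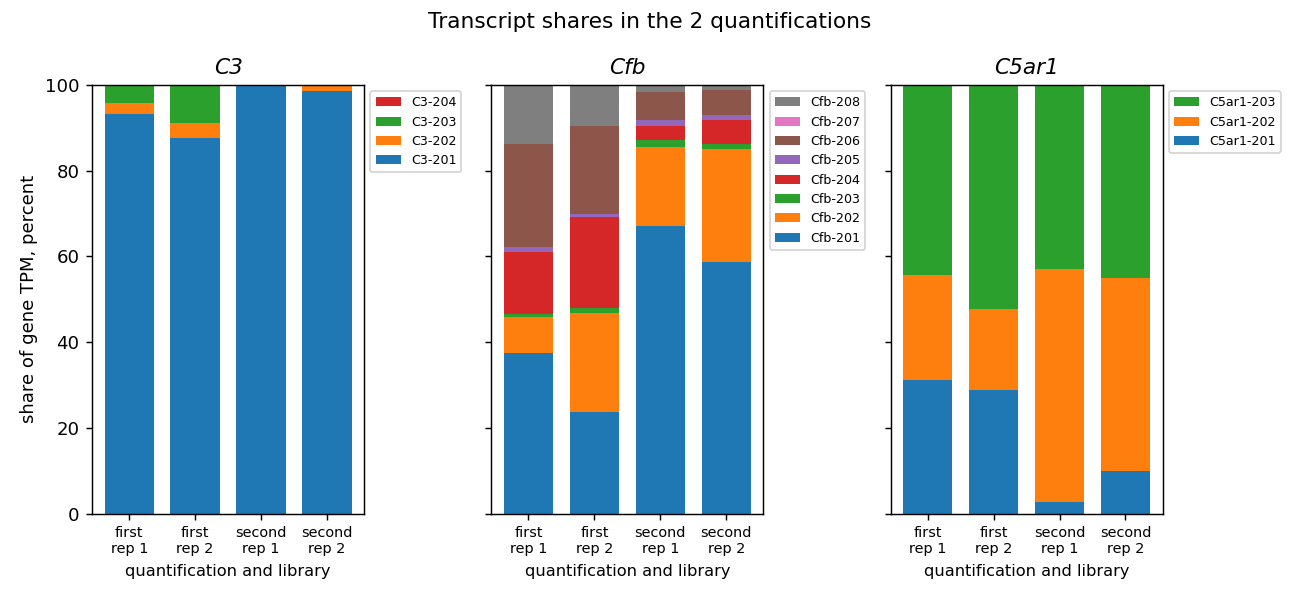
Share of the gene's TPM in percent held by each annotated transcript of C3, Cfb and C5ar1, as stacked bars for both libraries in the first and the second quantification. Cfb-201 takes 37.5% and 23.7% in the first quantification but 67.0% and 58.7% in the second.

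At the level of whole genes the quantifications were close. None of the 8 members was 2-fold or more apart between them, where 1.77% of 10179 protein-coding genes were. The second level was 97.5% and 92.1% of the first for C5ar1 in replicates 1 and 2, 96.4% and 96.7% for C3ar1, and 91.4% and 91.7% for C1qb. Cfb was furthest apart, at 76.7% and 75.5%, and C3 followed at 89.6% and 85.7%. Cfb counts of the second quantification were 108% and 107% of the first, and for each of the other members too the second counts were the higher. The cause of the lower Cfb level was not tested. C3 was at 246 and 600 TPM in the second quantification and Cfb at 314 and 453 TPM, both again higher in replicate 2.

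Around the members, complement RNA in these macrophages was uneven by role. A list of 56 complement genes, the members included, had 20 genes at 1 TPM or more in both libraries, 15 at 10 TPM and 12 at 100 TPM. Of the 48 that are not members, 25% reached 1 TPM, 14.6% reached 10 TPM and 8.33% reached 100 TPM, against 44.4%, 27.3% and 5.42% of protein-coding genes. In the classical pathway the proteases and substrates that act after C1q were far below the C1q chains. C1ra, the C1r protease, was at 10.04 and 9.65 TPM in replicates 1 and 2, and C1s1, the C1s protease, had 4 and 7 counts. C2 was at 1.89 and 2.66 TPM, or 3.19 and 4.03 TPM in the second quantification, and C4b, a C4 gene, at 1.03 and 2.68 TPM. C4b has a near-identical copy, C4a, so the split of reads between them is uncertain.

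Cfd, the factor D protease that cleaves factor B, had 0 counts in both libraries, beside Cfb at 409 and 600 TPM. The limit that a count of 0 allows is 3 counts, which is 0.0594 CPM (a count scaled to library depth) in replicate 1 and 0.0647 CPM in replicate 2, for counting error only. None of the 7 terminal pathway genes reached 1 TPM in both libraries of the first quantification. In the second, 1 of them did, C8g, the gamma chain of C8, at 2.01 and 1.72 TPM, against 0.21 and 0.94 TPM in the first. Hc, which encodes C5, the source of the C5ar1 ligand, had 2 and 0 counts, and C6, C7, C8a, C8b and C9 had none. None of the 10 fluid-phase regulators reached 1 TPM, and Cfi, which encodes the protease factor I, had 0 counts in both libraries. In the lectin pathway 1 of 8 genes reached 1 TPM, Fcna, the ficolin A gene, at 7.73 and 6.42 TPM.

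Of the 6 regulators held on the membrane, 2 reached 10 TPM in both libraries, or 33.3%, against 27.3% of protein-coding genes. Cr1l, which encodes the mouse C3 convertase inhibitor Crry, was at 107 and 125 TPM, and Cd55, the decay-accelerating factor, at 18.1 and 14.7 TPM. Cd59a, an inhibitor of the terminal complex, was at 4.37 and 5.33 TPM, its copy Cd59b at 0.61 and 0.34 TPM, Cd46 at 0.17 and 0.08 TPM and Cd55b at 0 TPM. Of the 11 receptor genes, 7 reached 10 TPM in both libraries, or 63.6%, C3ar1 and C5ar1 among them. Itgam and Itgb2, the chains of complement receptor 3, were at 117 ± 9.23 and 271 ± 6.07 TPM. Itgam, Cr1l and Cd46 were among the genes of the list with fractional expected counts, so some of their reads were shared with other genes. Calr and Lrp1, described as a pair that takes up C1q-bound material, were at 644 ± 131 and 103 ± 24.2 TPM, and Cd93, once named a C1q receptor, was at 62.7 ± 4.09 TPM (SD, n = 2 each). Lrp1 was lower in the second quantification, at 75.8 and 52.0 TPM. C5ar2, the other C5a receptor, which lies 2588 bases from C5ar1, was at 1.42 and 0.53 TPM. Of the 17 non-members tested between the libraries, 3 lay 2-fold or more apart, against 4.21% of all genes tested. They were C4b at 1.09, Cd46 at -1.02 and C5ar2 at -1.42 (named after their values were seen), with 164 and 323, 38 and 17, and 163 and 56 counts in replicates 1 and 2.

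**Figure D4:**
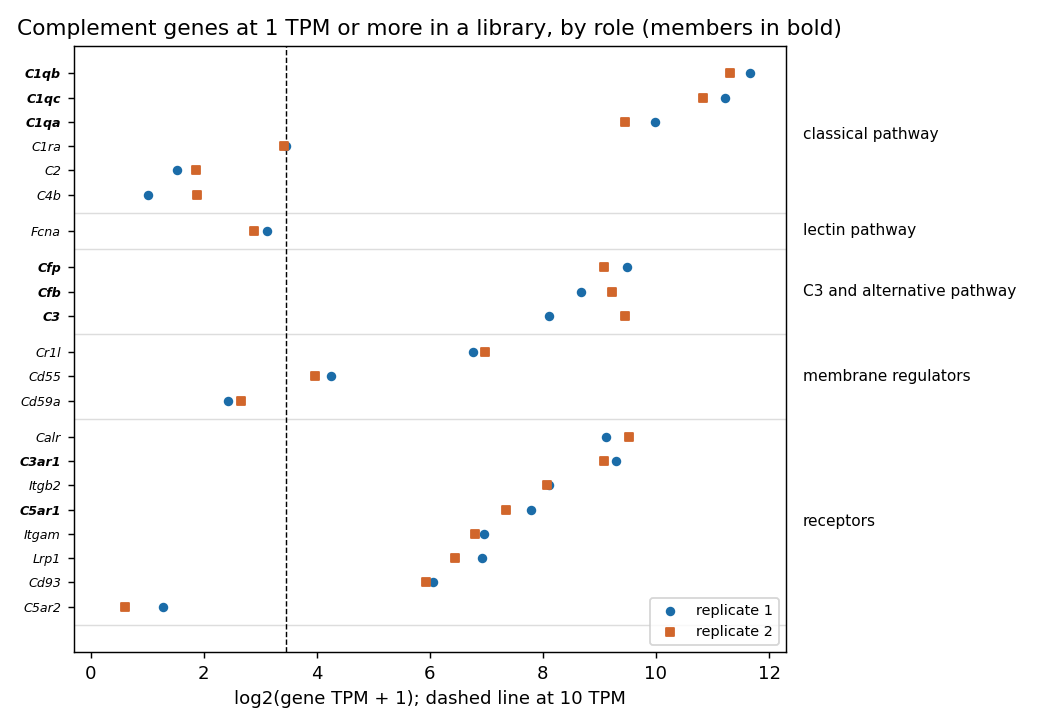
Level, as log2(TPM + 1), in the first quantification of the 21 complement pathway genes that reached 1 TPM in at least 1 library, by role, with a circle for replicate 1 and a square for replicate 2, members in bold and a dashed line at 10 TPM. The C1q chains, C3, Cfb, Cfp and 7 of 11 receptors lie right of the line, and no gene of the terminal pathway or the fluid-phase regulators reached 1 TPM in this first quantification.

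The genes nearest to each member in level, by distance on log2(TPM + 1) over the 2 libraries, were Ifit2 and Fcer1g for C1qb, Tyrobp and Grn for C1qc, and Glrx and Rps15a for C1qa. For C3 they were Cd14, with 348 TPM in replicate 1 against 691 TPM in replicate 2, and Ifit1bl1, at 340 and 818 TPM. Both thus showed the same side as C3, which follows from choosing them by nearness in both libraries. Grb2 and Anxa1 were nearest to Cfb, Rpl38 and Rpl34 to Cfp, Cox5a and Rpl23 to C3ar1, and Fermt3 and Snx5 to C5ar1. With 2 libraries this is nearness in level and no more.

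The labelled cell type was checked against marker lists. Of 10 macrophage markers, 10 were at 10 TPM or above in each library, against 27.3% of protein-coding genes. They summed to 19751 TPM in replicate 1 against 20435 TPM in replicate 2, of which Lyz2 was 10292 and 11210 TPM. Among these markers 1, Itgam, is also on the complement list. The 9 neutrophil markers summed to 67.9 TPM in replicate 1 and 4.46 TPM in replicate 2. Neutrophils also carry Cfp, C3ar1 and C5ar1. The list was led by S100a9 at 37.9 and 2.23 TPM and S100a8 at 23.1 and 1.57 TPM. Ngp was at 4.96 and 0.06 TPM and Ltf at 1.03 and 0.01 TPM. Camp was at 0.62 and 0.55 TPM, Elane at 0.19 and 0.04 TPM and Mpo at 0.13 and 0 TPM, with Ly6g and Retnlg at 0 in both. Cfp, C3ar1 and C5ar1 were higher in replicate 1 too, as were C1qa, C1qb and C1qc. The part of neutrophil RNA in these differences was not tested. The 7 fibroblast and stroma markers summed to 1.95 and 2.44 TPM, and the 6 hepatocyte markers had 0 counts in both libraries. Which cells the C3 RNA came from was not tested. The 5 endothelial markers summed to 15.7 and 49.3 TPM, of which Kdr was 11.0 and 41.6 TPM and Vwf 1.35 and 4.56 TPM, while Pecam1 and Cdh5 were at 1.96 and 1.38 TPM in replicate 1 and 2.23 and 0.87 TPM in replicate 2. Kdr, Vwf and, less so, Pecam1 were on the same side as C3 and Cfb, Cdh5 was on the other, and Tek had 0 and 1 counts. The part of this list in the C3 and Cfb differences was not tested. Summed levels were 0.26 and 0 TPM over 6 mast cell and basophil markers, 0.40 and 0.06 TPM over 5 lymphocyte markers, and 1.03 and 1.05 TPM over 5 dendritic cell markers.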

How the data were processed

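PolyA RNA-seq was deposited for 2 libraries of 1 group. The authors' gene and transcript tables hold expected counts, per the file headers, with deposited TPM and FPKM scaled to length and depth, and name transcriptome alignments as their parent, per the README deposited with each sample, on mm10 with GENCODE M21. A further deposited transcript table holds estimated counts and TPM made from the reads (the second quantification), summed here over transcripts per gene. Aligner, quantifier and strand handling were not given in the sources used here.

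Expected counts were rounded to whole numbers. They totalled 50503160 and 46342327 over genes in replicates 1 and 2. Entries that are no gene took 0.0631% and 0.0676% of counts and were left out. Levels are deposited gene TPM. For the ratio of replicate 2 over replicate 1, counts were filtered with filterByExpr and scaled with TMM in edgeR 4.0.16 under R 4.3.3 (prior count 0.5), and the fit was tested on simulated data. Size factors of DESeq2 1.42.0 were an alternative. Python 3.11.15 with matplotlib 3.10.9, SciPy 1.17.1, NumPy 2.4.6 and pandas 2.3.3 did the rest. The libraries are not copies of each other (chi-square per degree of freedom 69.8 over 14305 genes), which does not bear on whether their spread is biological. Values named in full are the members, pathway genes at 10 TPM or more in both libraries, the 2 nearest genes in level to each member, and leading transcripts with others at 5% or more. The members, gene lists and motifs were chosen with earlier results of these data known. A gene of the complement list is counted but not reported by name here. Protein sequences were not used here, so the planned chain identities were not computed. Molecular identifiers were not used here, so intervals cover counting error only.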

Additional observations from a re-analysis of the deposited data

How the results depend on the processing

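The side of the library difference held for each of the 8 members under all 8 alternatives tried, 64 of 64 values. All of these use the same 2 libraries, and most only rescale or refilter the same counts. Little change was possible under those, so the count is no replicate check. C3 moved most above its value of 1.25 when TPM replaced scaled counts, to 1.35 with a pseudocount of either 1 or 0.1 TPM, and stood at 1.28 in the second quantification. C5ar1 moved further than C3 with TPM, from -0.60 to -0.44 with either pseudocount. C1qa was at -0.55 there, so the order of C5ar1 and C1qa depended on the measure. Genes at least 2-fold apart numbered 528. They came to 5481 with every gene kept, 196 where the mean count was at least 100 and 6 where it was at least 10000, a line added after seeing the data. Fewer genes enter the last of these by construction. C3 was the only member past 2-fold in each of these settings that held all members. Cfb-201 held 30.6% of Cfb on average, but 62.8% in the second quantification, and the cause was not tested. In C5ar1 the mean share there was higher for C5ar1-202, at 49.6% against 44.0% for C5ar1-203, by replicate 1 alone. The pathway genes at 1 TPM or more in both libraries numbered 20, or 21 there with C8g. All 8 members stayed at 100 or more in both libraries in the second quantification, in TPM recomputed over annotated genes and in FPKM, and in each library alone. The order of levels held for 8 members in recomputed TPM, in FPKM and without replicate 2, for 6 in the second quantification and for 3 without replicate 1. No paired analysis was possible because there is 1 group. Depth did not limit the members, but pathway genes with few counts are not resolved.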
